A study of Mus musculus with 12 samples.

Results

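The genes described here encode the MAP kinase cascade, the calcium/calmodulin-dependent kinases, the protein kinase C isoforms, and the dual-specificity and tyrosine phosphatases. Members were the protein-coding genes of RefSeq GRCm38.p6 whose symbols begin with Mapk, Map2k, Map3k, Map4k, Camk, Prkc, Dusp, Ptpn or Ptpr followed by a number or isoform letter. This gave 130 of 21900 protein-coding genes, 68 in the kinase families and 62 in the phosphatase families. The symbols also took 9 scaffold, inhibitor and other accessory proteins, such as the JNK scaffold gene Mapk8ip3, which were counted with the family of their symbol. A CpG was assigned to a member when it lay in the gene span or within 5 kb on either side.

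Reduced representation bisulfite sequencing, which reads CpG-rich restriction fragments, was applied to DNA of splenic CD11c-positive dendritic cells from F1 female C57BL/6 mice, all labelled as immunised with OVA. For 6 libraries the F0 mother had been given the plasticiser DEHP, di(2-ethylhexyl) phthalate, and for 6 she had been given corn oil. The daily dose was 37 µg per kg over 10 days, after which the females were crossed with naive males. The labels do not give the age at which the offspring were sampled, and they do not say how many mothers stand behind the libraries. Spleen tissue is also named as a source of DNA in the extraction protocol, and no methylation level was at hand to check the cell type against its markers.

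The authors' deposited table compares the 2 groups as wholes. It holds 2798 called CpGs, 1354 with a positive and 1444 with a negative difference, each at least 25.0 percentage points in size. A positive difference is taken here as a gain in the offspring of DEHP-treated mothers and a negative one as a loss. The table itself names no direction of subtraction. Values per library were not used here, so no spread, replicate check or interval accompanies any difference, and the depth is unknown. A gene without a called site may have been unchanged, changed by less or not covered.

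MAP kinases relay signals from receptors through a chain of kinases. MAP4Ks can activate MAP3Ks, MAP3Ks activate MAP2Ks, and MAP2Ks activate ERK, JNK and p38. The MAP kinase phosphatases among the dual-specificity (Dusp) enzymes remove the activating phosphates again, and tyrosine phosphatases act on receptors, JAKs, STATs and Src-family kinases. In dendritic cells these pathways carry signals from pattern-recognition receptors to cytokine production and maturation.

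Called sites lay at 19 of the 130 members (14.6%). The background over all 21900 protein-coding genes was 6.51%. Gains lay at 10 members (7.69%, against 3.48% of all protein-coding genes) and losses at 11 (8.46%, against 3.77%), and both Camk2b and Ptprg held a site of each direction. The 19 genes held 22 sites, 11 gains and 11 losses, on 13 chromosomes. The other 111 members held none. The median absolute difference at the members was 30.6 percentage points, beside 29.1 points for the 1646 sites at any protein-coding gene, and the range was 25.2 to 43.5 points. At least 30 points separated the groups at 12 of the 22 sites (54.5%) and at 41.4% of the sites of all protein-coding genes. In the authors' deposited table, 17 of the 22 sites had a q-value of 0 and the largest q-value was 2.73e-08. Of all 2798 called sites, 2073 had a q-value of 0 and the largest was 3.62e-05.

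**Figure D1:**
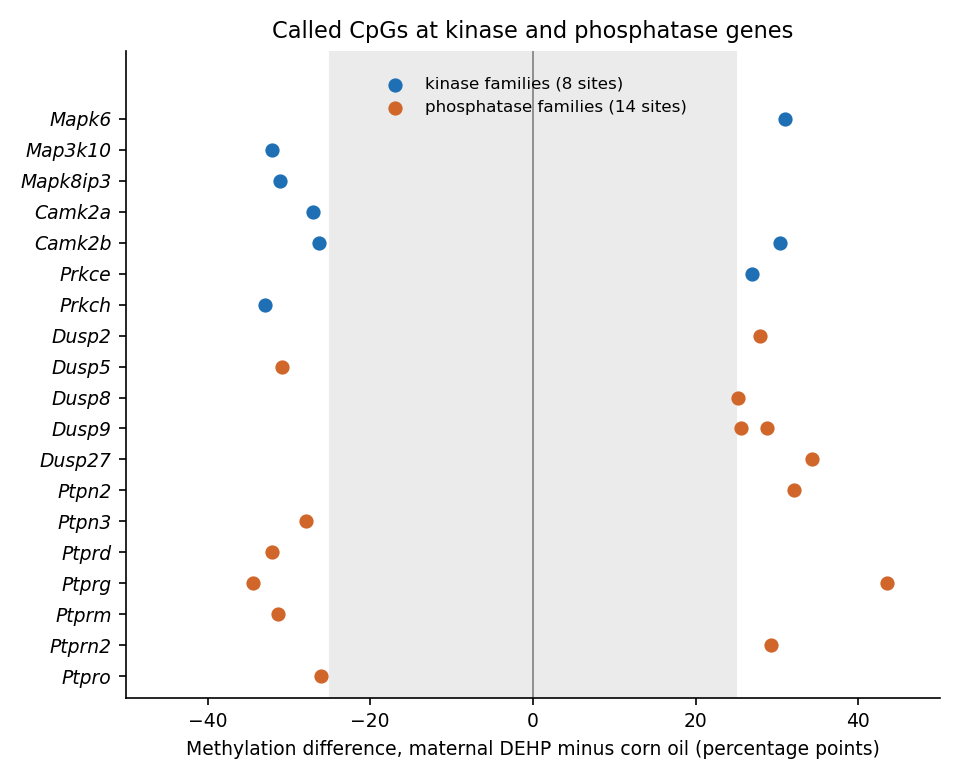
Methylation difference in percentage points (horizontal axis) at each of the 22 called CpGs of the 19 genes (vertical axis), 1 point per CpG, blue for kinase families and orange for phosphatase families. The grey band covers differences under 25 points, which the deposited list leaves out. Camk2b and Ptprg have points on both sides, and the Ptprg gain of 43.5 points lies farthest from 0.

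None of the 22 sites lay in a listed RefSeq promoter window, which runs from 250 bases before to 50 bases after a gene start. Of all 2798 called sites, 74 did. At a share this low, a count of none among 22 sites lies near the background. Such a window was listed for 99 of the 130 members (76.2%), too few for a comparison of promoter composition between sets of members. The called sites nearest to a listed start were those of Ptpro (538 bases downstream), Map3k10 (1122 bases downstream), Mapk8ip3 (1552 bases downstream) and Dusp2 (2724 bases upstream). Their upstream 250 bases are shown because they are the listed promoters with a called CpG within 3 kb. A window was listed for 13 of the 19 called members. Dusp9 and Ptpn2, with called sites close to an end of the span, had no listed start and could not be placed this way. The sequences are written 5′ to 3′ on the strand of the gene, from RefSeq GRCm38.p6, with every CpG in capitals.
Ptpro: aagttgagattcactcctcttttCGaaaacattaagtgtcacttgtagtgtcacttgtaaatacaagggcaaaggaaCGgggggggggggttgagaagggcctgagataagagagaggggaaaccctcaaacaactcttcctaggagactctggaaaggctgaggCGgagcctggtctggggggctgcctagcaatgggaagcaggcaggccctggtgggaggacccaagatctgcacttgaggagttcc
Map3k10: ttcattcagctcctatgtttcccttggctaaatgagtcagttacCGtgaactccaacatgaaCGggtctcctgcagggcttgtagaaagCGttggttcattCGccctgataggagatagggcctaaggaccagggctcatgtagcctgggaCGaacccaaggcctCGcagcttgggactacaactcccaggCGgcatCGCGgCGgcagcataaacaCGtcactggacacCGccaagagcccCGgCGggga
Mapk8ip3: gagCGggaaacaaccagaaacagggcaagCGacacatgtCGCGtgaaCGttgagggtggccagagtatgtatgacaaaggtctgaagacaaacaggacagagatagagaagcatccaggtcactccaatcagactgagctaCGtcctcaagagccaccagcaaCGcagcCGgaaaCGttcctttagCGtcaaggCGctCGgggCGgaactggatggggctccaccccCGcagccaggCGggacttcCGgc
Dusp2: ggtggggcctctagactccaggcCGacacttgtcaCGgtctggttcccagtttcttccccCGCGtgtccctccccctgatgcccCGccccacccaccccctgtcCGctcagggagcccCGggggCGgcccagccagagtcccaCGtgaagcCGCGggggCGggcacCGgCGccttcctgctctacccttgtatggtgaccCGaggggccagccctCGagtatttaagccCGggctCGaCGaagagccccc

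The Ptpro sequence is chr6:137252049-137252298 on the plus strand and holds 3 CpGs and no CCGG. Map3k10 has chr7:27674582-27674831 on the minus strand, with 14 CpGs and 1 CCGG. The Mapk8ip3 stretch, chr17:24936978-24937227 on the minus strand, holds 16 CpGs and 2 CCGG. Dusp2 is the richest of them, with 19 CpGs and 3 CCGG in chr2:127335909-127336158 on the plus strand. The median over 21263 listed windows of protein-coding genes, cut in the same way, was 10 CpGs, and 55.8% of them held CCGG. CCGG reads the same on both strands, contains a CG, and is the site of the enzyme commonly used for this assay, although the labels do not name the enzyme. The matches describe the letters of these windows and say nothing of their coverage or methylation.

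Among the MAP kinases and their activators, 2 of 18 Mapk-symbol genes (11.1%) and 1 of 19 Map3k genes (5.26%) carried a called site. The share over all protein-coding genes was 6.51%. Of the Map2k genes 0 of 7 did, and of the Map4k genes 0 of 5, counts near that share in families this small. Map3k10, a mixed-lineage kinase upstream of JNK, held a loss of -32.1 percentage points at chr7:27673459 in the authors' deposited table. This site lay inside the gene, 1.17 kb from the nearer end of the span, and within 5 kb of the zinc finger gene Zfp607b. Mapk8ip3, a scaffold that holds JNK and its upstream kinases together, held a loss of -31.0 points at chr17:24935425 in the same deposited table. Mapk6, which encodes the atypical MAP kinase ERK3, held a gain of 31.0 points at chr9:75402134, 7.22 kb downstream of the nearest listed start. Mapk3 of the ERK branch and the JNK and p38 genes Mapk8, Mapk9, Mapk10, Mapk11, Mapk12, Mapk13 and Mapk14, carried no called site, and neither did Map3k7, which encodes the kinase TAK1.

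Of the 10 Camk genes, 2 carried sites, Camk2a and Camk2b. The share was 6.51% over all protein-coding genes and 10.0% for spans of 50 to 150 kb, the class of both genes. Both encode catalytic subunits of calcium/calmodulin-dependent kinase II, of which there are 4 genes. Camk2b held a gain of 30.3 percentage points at chr11:5995122 and a loss of -26.3 points at chr11:5997697 in the authors' deposited table, 2575 bases apart. Both lay 68.1 to 70.6 kb downstream of the listed start. Camk2a held a loss of -27.1 points at chr18:60984162, inside the gene and 3.99 kb from an end of its span. No called site lay at Camk2d, Camk2g, Camk4, Camk1, Camk1d, Camk1g or the inhibitor genes Camk2n1 and Camk2n2.

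Protein kinase C genes carried sites at 2 of 9 members (22.2%), and these went in opposite directions. The share was 6.51% over all protein-coding genes and 17.6% for spans of 150 to 500 kb, the class of both genes. Prkch, the eta isoform, held a loss of -32.9 percentage points at chr12:73739689 and Prkce, the epsilon isoform, a gain of 26.9 points at chr17:86533542 in the authors' deposited table. Both sites were deep in the gene, 38.5 kb and 124 kb from the nearer end. Both isoforms belong to the 4 that respond to diacylglycerol without calcium. The other members of that subgroup, Prkcd and Prkcq, carried none, nor did the calcium-dependent Prkca and Prkcb or the atypical Prkci and Prkcz.

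Among the dual-specificity phosphatases, 5 of 24 genes (20.8%) carried 6 sites, 5 of them gains. Beside this stand 6.51% of all protein-coding genes, and gains at 48.1% of the sites of all protein-coding genes. With spans under 20 kb, 4 of 19 Dusp genes carried a site (21.1%), against 4.09% of all protein-coding genes of that length. Dusp9, an X-linked phosphatase that acts mainly on ERK, held gains of 25.6 percentage points at chrX:73639532 and 28.8 points at chrX:73639751 in the authors' deposited table. These sites lay 143 and 362 bases inside an end of the span, which is 4.13 kb long. Dusp2, an inducible nuclear phosphatase of immune cells, had a gain of 27.9 points at chr2:127333435, outside its span and inside that of the long noncoding RNA gene Gm46762. Dusp8, which acts on JNK and p38, held a gain of 25.2 points at chr7:142082769, 12.5 kb downstream of its start. Dusp5, a nuclear phosphatase of ERK, held the one loss of the family, -30.9 points at chr19:53541255 in the deposited table, 554 bases from the far end of the gene. Dusp27, an atypical member that lacks the catalytic cysteine, held a gain of 34.3 points at chr1:166100582, 2.43 kb from its far end.

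Of the 10 MAP kinase phosphatase genes proper, 4 carried a called site (Dusp2, Dusp5, Dusp8 and Dusp9), and of the 14 atypical dual-specificity genes 1 did (Dusp27). The 4 genes are short, with spans under 20 kb, a class in which 4.09% of all protein-coding genes carried a site. Of the 8 MAP kinase phosphatase genes in that class, the remaining 4 without a site were Dusp1, Dusp4, Dusp6 and Dusp7. This division of the family, like those of the CaMKII and protein kinase C genes above, was made after the values were seen, so the counts are a description.

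Non-receptor tyrosine phosphatases carried sites at 2 of 17 genes (11.8%), beside 6.51% of all protein-coding genes. For spans of 50 to 150 kb, the class of both genes, the share was 10.0%. Ptpn2 encodes a phosphatase that acts on JAK and STAT proteins, and the authors' deposited table had a gain of 32.1 percentage points at chr18:67664119, 1.38 kb outside its span. Ptpn3, a phosphatase with FERM and PDZ domains, held a loss of -27.9 points at chr4:57273763, 28.1 kb downstream of its listed start. The q-value of the Ptpn3 site was the largest of the 22. Ptpn1, Ptpn6, Ptpn11 and Ptpn22, which encode the phosphatases PTP1B, SHP-1, SHP-2 and PEP of immune receptor signalling, carried no called site.

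Receptor-type tyrosine phosphatases carried sites at 5 of 21 genes (23.8%), 2 gains and 4 losses. The share was 6.51% over all protein-coding genes. Over 500 kb, where 4 of the 5 genes lay, 4 of 6 receptor-type genes carried a site (66.7%). Among all protein-coding genes of that length the share was 30.4%. Ptprg, whose extracellular part resembles carbonic anhydrase, held the largest gain and the largest loss of all members in the authors' deposited table. The gain was 43.5 percentage points at chr14:12074538 and the loss -34.4 points at chr14:12074658, only 120 bases away and 521 kb from the first listed start. Ptprd, a LAR-type receptor of synapses, held a loss of -32.1 points at chr4:76449549, 508 kb from the nearer end. Ptprm, a homophilic adhesion receptor, held a loss of -31.3 points at chr17:66686735, 668 kb downstream of its start and 19.9 kb from its far end. Ptprn2, a protein of secretory granules, held a gain of 29.2 points at chr12:116735314 in the deposited table, 250 kb into the gene. Ptpro, known from kidney podocytes, held a loss of -26.0 points at chr6:137252837, the nearest to a listed start among the 15 sites whose gene has one. Ptprc, which encodes the leukocyte antigen CD45, carried no called site.

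The kinase and phosphatase families were set side by side. Called sites lay at 7 of 68 kinase-family genes (10.3%) and at 12 of 62 phosphatase-family genes (19.4%), beside 6.51% of all protein-coding genes. Kinase-family sites comprised 3 gains and 5 losses, and phosphatase-family sites 8 gains and 6 losses. Gains made up 37.5% and 57.1% of these sites, beside 48.1% of the sites of all protein-coding genes. Sizes overlapped, from 26.3 to 32.9 percentage points (median 30.7) in the kinase families and from 25.2 to 43.5 points (median 30.1) in the phosphatase families. Genes are not replicates of the treatment, so the difference in shares was not tested.

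The median span was 57.0 kb in the kinase families and 53.5 kb in the phosphatase families, against 17.1 kb over all protein-coding genes. The Dusp genes had a median span of 11.8 kb and sites at 20.8% of genes. The Map2k and Map4k genes, with medians of 67.8 and 89.4 kb, had none. In families of 7 and 5 genes a count of 0 lies near the 10.0% share of all protein-coding genes with spans of 50 to 150 kb. Over all protein-coding genes the share called was larger in each longer class, 4.09% for spans under 20 kb, 6.01% at 20 to 50 kb, 10.0% at 50 to 150 kb, 17.6% at 150 to 500 kb and 30.4% over 500 kb. Per Mb of span and flanks, the members held 1.30 called sites and all protein-coding genes 1.53, each gene counted with its own window. The kinase families held 1.18 per Mb and the phosphatase families 1.38. Over all protein-coding genes this density fell with each longer class, from 2.97 under 20 kb to 0.63 over 500 kb. Up to 500 kb it was 2.25 in the phosphatase families, 1.58 in all members and 1.69 over all protein-coding genes.

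**Figure D2:**
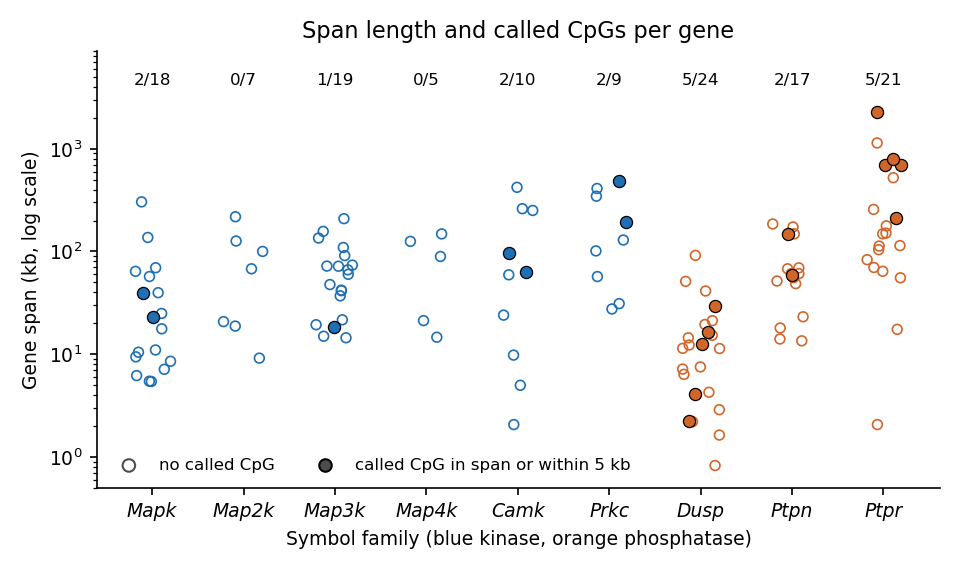
Span of each of the 130 genes in kb (vertical axis, log scale) by symbol family (horizontal axis), filled where a called CpG lay in the span or within 5 kb and open where none did, with the number of genes carrying a called CpG over all genes of the family above each column. The filled Dusp points lie between 2.22 and 29.8 kb, and 4 of the 5 filled Ptpr points lie above 500 kb.

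Within span classes the members lay near the background in some and above it in others. At 50 to 150 kb, 4 of 44 members carried a site (9.09%), and at 150 to 500 kb 3 of 18 did (16.7%), both just under the share of all protein-coding genes of that length. Under 20 kb, 5 of 43 members did (11.6%), and 4 of these were Dusp genes. The fifth was Map3k10. At 20 to 50 kb 3 of 19 did (15.8%), namely Mapk6, Mapk8ip3 and Dusp27. Over 500 kb the members were 6 receptor phosphatases, of which Ptprd, Ptprg, Ptprm and Ptprn2 carried sites and Ptprk and Ptprt did not. No kinase-family gene was that long. Without the 6, the phosphatase families had sites at 8 of 56 genes (14.3%), beside 10.3% in the kinase families and 6.26% of all protein-coding genes up to 500 kb.

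**Figure D3:**
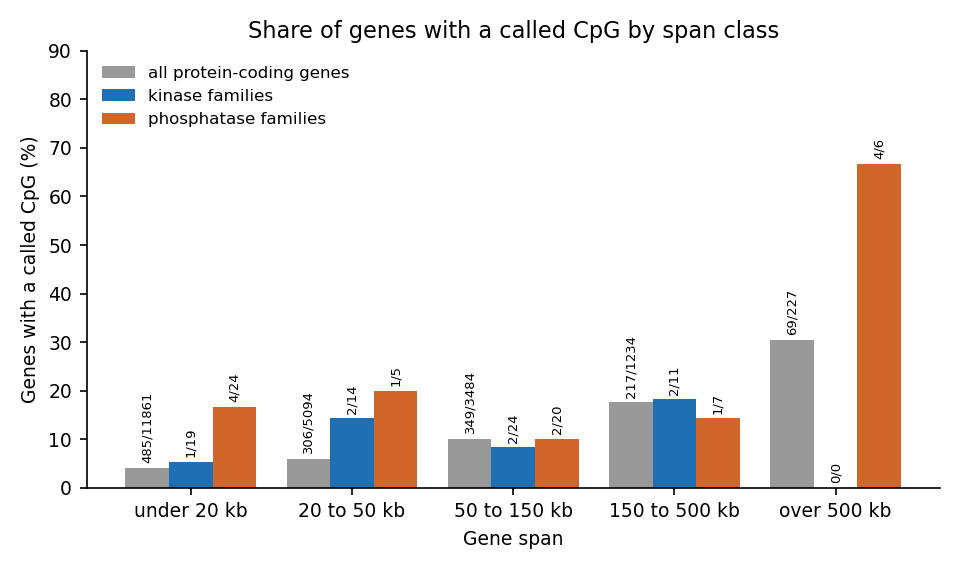
Percentage of genes with a called CpG (vertical axis, from 0) in 5 classes of gene span (horizontal axis) for all protein-coding genes (grey), kinase families (blue) and phosphatase families (orange), with counts above the bars. The share of all protein-coding genes goes from 4.09% in the shortest class to 30.4% in the longest, which holds 6 phosphatase and 0 kinase genes.

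Of the 22 sites, 20 lay in a span and 2 outside (Dusp2 and Ptpn2), and 4 sites of 3 genes (Dusp5, Dusp9 and Ptpro) were within 1 kb of an end. More than 10 kb separated 10 sites from either end. Direction of transcription was listed for 14 of the sites in a span. Of these, 3 lay in the first 10% of the span (21.4%, against 21.3% of 1157 such sites over all protein-coding genes) and 3 in the last 10% (21.4%, against 13.8%). The first 10% held losses at Ptpro, Mapk8ip3 and Map3k10. The Dusp9 gains, 143 and 362 bases inside an end of the span, are not among the 14, because no direction was listed. Sites of Ptprm and Dusp5 (losses) and Dusp27 (a gain) were in the last 10%. In the second part of the span, past its midpoint, lay 2 of 5 kinase-family and 6 of 9 phosphatase-family sites, beside 49.4% over all protein-coding genes. With so few sites these shares describe the list and no more.

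**Figure D4:**
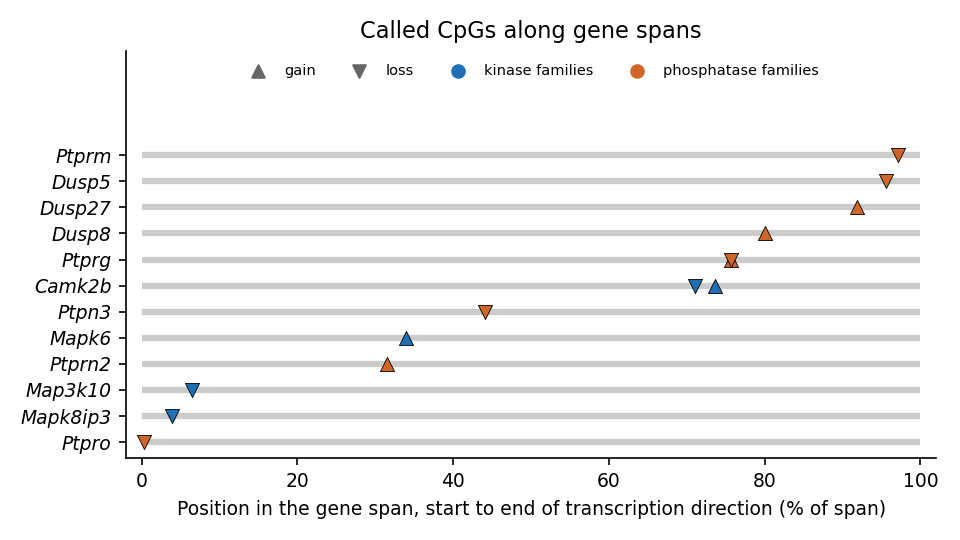
Position of 14 called CpGs along the spans of 12 genes with a listed direction of transcription (horizontal axis, % of span from start to end), 1 gene per line, upward triangles for gains and downward for losses, blue for kinase and orange for phosphatase families. Of the sites shown, the 3 nearest the start, at Ptpro, Mapk8ip3 and Map3k10, are losses. The Dusp9 gains, 143 and 362 bases inside an end of the span, are not shown because no direction was listed.

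Most sites stood alone. Besides the pairs of Ptprg and of Dusp9, whose sites were 120 and 219 bases apart, no site had another called CpG within 1 kb, and besides these and the Camk2b pair none had one within 10 kb. The Dusp9 pair agreed in sign, and the Ptprg and Camk2b pairs did not. No share over all called sites stands beside these counts, so they are no comparison with sites at other genes.

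Partners of these enzymes were counted the same way. Of 110 genes in 5 lists of partners, 10 carried called sites (9.09%, against 6.51% of all protein-coding genes). Median spans of these lists ran from 20.8 to 62.9 kb, against 17.1 kb over all protein-coding genes. In the classes of 20 to 50 kb and 50 to 150 kb, 6.01% and 10.0% of all protein-coding genes carried a site. The share of the partners lay within that range. Among effectors of MAP kinases 3 of 27 did. Fosl2, an AP-1 subunit, held losses of -39.8 and -25.2 percentage points, Ddit3, a stress transcription factor, had gains of 33.1 and 32.9 points beside it, and the kinase gene Rps6ka3 had a gain of 25.5 points in the authors' deposited table. Of 25 genes around Ras and Raf 2 did, the adaptor gene Grb2 (30.1 points) and the kinase gene Braf (-30.6 points). Of 16 genes around TAK1 and the TRAF adaptors 2 did, Tab3 (30.7 points) and Traf3 (-29.3 points). Of 23 calcium and diacylglycerol genes 2 did, Nfatc4 (-31.4 and -29.1 points) and Prkd1 (-29.0 points). Among 19 kinases and STATs that tyrosine phosphatases act on, Jak1 had a gain of 36.0 points in the deposited table.

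Marker genes of dendritic cells (12 genes), B cells (8), T and NK cells (8) and macrophages or monocytes (8) carried 0 called sites, where the share over all protein-coding genes was 6.51% (4.09% for spans under 20 kb). In lists this short a count of 0 lies near that background. The mixture of cells in each group cannot be read from that count, and its part in the differences above was not tested.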

How the data were processed

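Reduced representation bisulfite libraries of 12 samples (6 maternal DEHP, 6 maternal corn oil) were compared by the authors with methylKit on GRCm38 (mm10), per the submitters' processing notes, with the aligner, coverage minimum, test form and versions not given in the sources used here. Per the file headers, each deposited row holds a position, a p-value with its q-value, and a difference in percentage points (a signed score of the groups as wholes). The deposited hypermethylated and hypomethylated parts add up to the whole table. Depth per library is unknown, and nothing says that libraries came from separate animals.

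Sites were assigned to RefSeq GRCm38.p6 gene spans with 5 kb flanks in Python 3.11.15 (pandas 2.3.3, numpy 2.4.6), and the assignment was tested on simulated sites. Starts and strands came from the RefSeq promoter windows. Every member with a called site is named, and some other members are not reported here by name. Partner and marker lists held 146 genes. The members and lists were chosen with earlier results of these data known. No test was run, since a test over genes would treat genes as replicates. In all, 12 alternatives were tried.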

Additional observations from a re-analysis of the deposited data

How the results depend on the processing

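Raising the minimum difference to 30 percentage points left 12 sites at 11 members, 5 gains and 7 losses (at 5 members with a gain and 7 with a loss). Of these sites 5 lay at kinase-family and 7 at phosphatase-family genes, the latter at 6 genes. With at least 40 points, 1 site at 1 gene was left, the gain at Ptprg of the phosphatase families, with 0 kinase-family genes or sites and 0 losses. Without spans over 500 kb, phosphatase-family sites numbered 9 in place of 14. The other 95 of 115 recomputed counts stayed within 1.5 times their value. A limit of 0.001 on the q-value changed none of the counts, since every site lay below it. Gene spans alone gave 7 kinase-family and 10 phosphatase-family genes, and flanks of 20 kb 10 and 13. Leaving out the 9 accessory proteins gave 6 and 12, with Dusp27 still counted. Without the opposite pairs 110 to 180 bases apart Ptprg dropped out, which left 18 members. No share over all protein-coding genes stands beside the counts at other limits or flanks, so these counts are no comparison with other genes. Leaving out libraries was not possible, because the deposited comparison holds no value per library. No paired analysis was possible because the result comes from a table without columns for samples. Unknown depth leaves unmeasured how small a difference could have been called at each gene.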

Other observations

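With flanks of 20 kb, 4 further members had a called site within reach. A wider flank can take in more sites at any gene, and no share over all protein-coding genes is given for 20 kb. In the authors' deposited table these were a gain of 34.8 percentage points 11.4 kb outside Map3k6, a kinase upstream of JNK and p38, and a gain of 26.6 points 14.3 kb outside Ptpn11, which encodes SHP-2. Losses in the same deposited table lay 18.8 kb outside Map2k2, which encodes the ERK activator MEK2 (-28.0 points, inside the neighbouring gene Zbtb7a), and 9.24 kb outside Prkcd, the delta isoform of protein kinase C (-27.3 points). None of the 4 would be counted with the flanks of 5 kb used above, and 3 of them lay in no annotated gene.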
